A study of Homo sapiens with 2 samples.

Results

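A set of 10 heme and iron handling genes was followed in cultured human endothelial cells: HMOX1, HMOX2, BLVRA, BLVRB, FTH1, FTL, SLC40A1, TFRC, SLC48A1 and FLVCR1. They were chosen by symbol as the core steps from heme uptake to iron storage, and all 10 were found among the 36601 genes of both count matrices. All 10 also passed the minimum of 100 unique molecular identifiers (UMIs, 1 for each captured RNA molecule) summed over both libraries, as did 11043 genes in total.

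The cells were HUVECs, primary endothelial cells of the umbilical vein, grown for about 48 h under flow to a confluent layer on 50 µm microfluidic channels. In the group called hRBC, healthy red blood cells were perfused through the channels for 4 h. In the group called 5% pdRBC, the same perfusion carried 5% red blood cells that nystatin and sucrose washes had dehydrated to 40 to 42 g/dL of hemoglobin, mixed into healthy cells. The dehydrated cells stand in for the stiff red cells of sickle cell disease, and they carry none of its hemoglobin. Each group was 1 single-cell library (10x Genomics 5′ chemistry, version 2), so no p-value was computed and no difference has a replicate check.

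Heme is freed when hemoglobin breaks down, and endothelium lining a vessel is among the first tissues to meet it. Inside the cell, heme oxygenases open the heme ring and release iron, carbon monoxide and biliverdin, and biliverdin reductases turn biliverdin into bilirubin. The iron is held in ferritin, a hollow shell of heavy (FTH1) and light (FTL) chains, or leaves through ferroportin (SLC40A1). Iron arrives bound to transferrin through its receptor (TFRC), while HRG1 (SLC48A1) and FLVCR1 move heme itself across membranes. Heme releases the repressor BACH1 from the HMOX1 and ferritin genes, and low iron lets the iron regulatory proteins bind hairpins in the ferritin, ferroportin and transferrin receptor RNAs.

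The libraries were unlike in depth, which touches every comparison here. After barcodes with under 1000 UMIs, under 500 genes or over 20% mitochondrial UMIs were left out, the hRBC library held 2555 cells with a median of 2175 UMIs each, and the 5% pdRBC library held 1601 cells with a median of 9566. Their sums were 13335148 and 16127985 UMIs. Library, depth per cell and treatment cannot be told apart in this design. The kept cells shared 6 barcodes between the libraries. All 10 endothelial markers were measured, at a summed level of 4029 CPM (UMIs per 1000000 UMIs of the library) in hRBC and 3811 CPM in 5% pdRBC. Of 13 red-cell markers, HBA1 and HBA2 had 0 UMIs in both libraries, and HBB had 12 UMIs in hRBC and 0 in 5% pdRBC. The list summed to 47.2 and 52.6 CPM, of which BPGM, a glycolytic enzyme gene that other cells also express, held 46.0 and 52.2 CPM. The 10 monocyte and macrophage markers summed to 32.9 and 32.4 CPM, of which CD68, a lysosomal protein gene, held 32.5 and 32.1 CPM, and the defining markers CD14 and CD163 had at most 3 UMIs in either library.

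FTH1 and FTL had the highest counts of all genes in both libraries. FTH1 (chr11:61959718-61967660, minus strand, GRCh38) stood at 29103 CPM in hRBC and 35705 CPM in 5% pdRBC, a fold of 1.23 (1.22 to 1.23; 95% interval for counting error only, as for every fold and level below). FTL (chr19:48965301-48966878, plus strand) stood at 26095 and 33614 CPM, a fold of 1.29 (1.28 to 1.29). Together, the ferritin chains took 5.52% of all UMIs in hRBC and 6.93% in 5% pdRBC. The ratio of FTH1 to FTL UMIs was 1.12 in hRBC and 1.06 in 5% pdRBC, so the light chain differed more between the libraries than the heavy chain.

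Both ferritin RNAs carry an iron response element, the hairpin that the iron regulatory proteins bind. The protein-coding transcripts of GENCODE release 29 (GRCh38) were searched on the transcript strand for its bulged C, 5 paired bases and the loop CAGTGN, with G-T pairs allowed. It was found in 291 of 19684 genes (1.48%) and in 4 of the 10 members: once in the 5′ UTRs of FTH1, FTL and SLC40A1, and 4 times in the 3′ UTR of TFRC. A match is a stretch of letters and not a measured site. The sites are shown because members with a 5′ UTR site and the member with 3′ UTR sites can then be read side by side, with the loop in capitals and with U written as T. They lie at chr11:61967574-61967603 (minus strand, FTH1), chr19:48965334-48965363 (plus strand, FTL), chr2:189580661-189580690 (minus strand, SLC40A1) and, for the 1 of the 4 TFRC sites printed here, chr3:196050463-196050492 (minus strand).
FTH1: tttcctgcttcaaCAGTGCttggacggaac
FTL: tctcttgcttcaaCAGTGTttggacggaac
SLC40A1: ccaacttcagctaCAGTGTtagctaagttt
TFRC: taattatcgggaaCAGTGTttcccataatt

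FTH1, FTL and SLC40A1 were each at least 1.2-fold higher in 5% pdRBC, as were 7.28% of all measured genes, and TFRC was level. Other genes with a match were not compared, so nothing about the hairpin is read from these 3. SLC40A1 (chr2:189560579-189583758, minus strand), ferroportin and the one known cellular iron exporter, had 352 UMIs or 26.4 CPM in hRBC and 525 UMIs or 32.6 CPM in 5% pdRBC, a fold of 1.23 (1.08 to 1.42). Outside 1 cluster of cells, described with the clusters, the SLC40A1 fold was 0.906. TFRC (chr3:196027183-196082189, minus strand) had 362 and 438 UMIs, which is 27.1 and 27.2 CPM and a fold of 1.00 (0.868 to 1.15). Protein was not measured, and the hairpins act largely on translation and RNA stability.

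HMOX1 (chr22:35380361-35394214, plus strand), the inducible heme oxygenase, stood at 666 CPM (652 to 680) in hRBC and 770 CPM (756 to 784) in 5% pdRBC. The fold of 1.16 (1.12 to 1.19) lay under 1.2, and 15.02% of the measured genes had a higher one. Without 1 cluster of cells, described with the clusters, it was 0.904. HMOX2 (chr16:4474690-4510347, plus strand), the constitutive heme oxygenase, stood at 94.3 and 88.1 CPM, a fold of 0.935 (0.866 to 1.01). Its interval held 1. The ratio of HMOX1 to HMOX2 UMIs was 7.07 in hRBC and 8.74 in 5% pdRBC.

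Neither biliverdin reductase differed beyond its counting interval. BLVRA (chr7:43758680-43807342, plus strand) stood at 16.3 and 14.4 CPM, a fold of 0.888 (0.735 to 1.07). BLVRB (chr19:40447765-40465840, minus strand), which also reduces flavins, stood at 79.9 and 75.2 CPM, a fold of 0.942 (0.867 to 1.02). Of the heme carriers, SLC48A1 (chr12:47753916-47782753, plus strand) stood at 20.5 CPM in both libraries. FLVCR1 (chr1:212858255-212899363, plus strand) rested on 69 UMIs in hRBC and 113 in 5% pdRBC, 5.17 and 7.01 CPM, and its fold of 1.35 had an interval from 0.995 to 1.85. Over all cells the FLVCR1 interval thus held 1, while without the cells of cluster 4, described with the clusters, it had 43 and 76 UMIs and a fold of 1.67 (1.14 to 2.50). There 2.90% of all measured genes passed 1.5-fold. Without cluster 0, 2, 3 or 5, each left out alone, the FLVCR1 interval held 1.

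Few members passed the thresholds on size. FTH1, FTL and SLC40A1 were at least 1.2-fold higher with an interval that left out 1, beside 7.28% of all measured genes, and 0 members were as much lower, beside 5.06%. At 1.5-fold, 0 members were higher or lower, beside 1.55% and 1.09% of all measured genes. HMOX1 was the other member whose interval lay above 1 (4 of 10 members, beside 1697 of 11043 measured genes). The median log2 fold was 0.10 over the members and 0.02 over all measured genes. Abundant genes differed less upward: by the same rule, 4.05% of the 1751 genes at 100 CPM or more in 1 library stood above hRBC and 6.62% below it. Of the 133 genes at 1000 CPM or more, 3.76% stood above (5 genes, FTH1 and FTL among them) and 12% below.

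**Figure D1:**
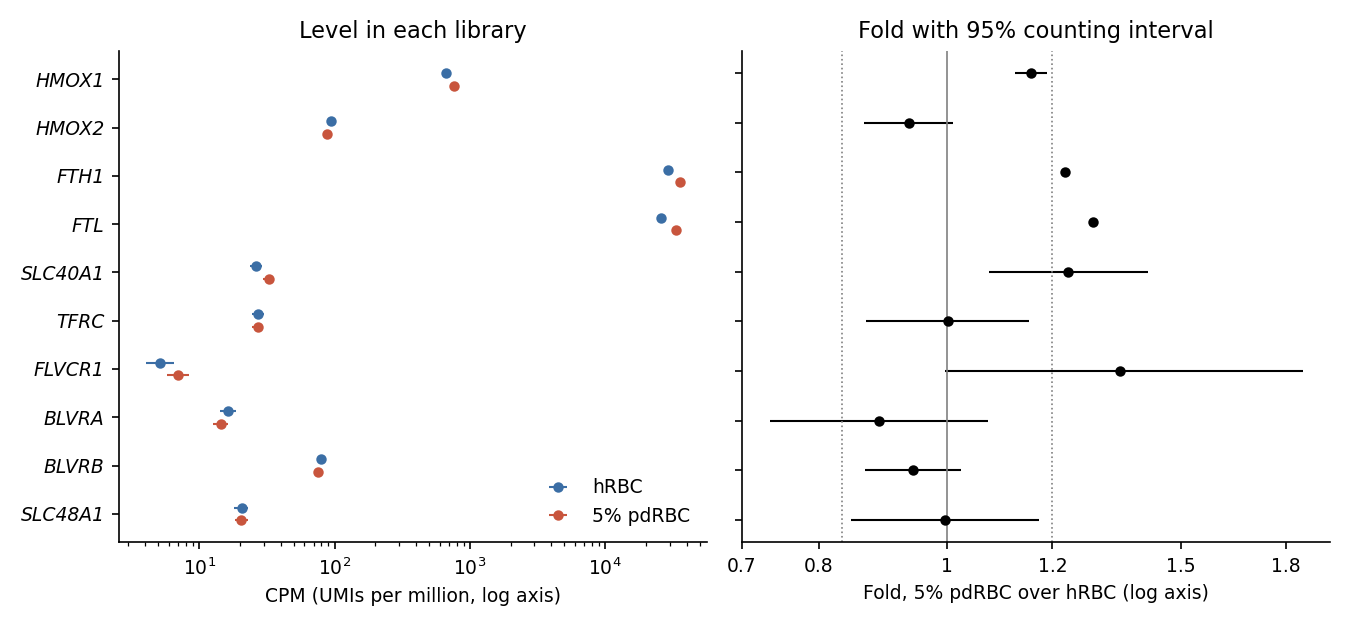
Level of the 10 members in each library (left, CPM on a log axis) and fold of 5% pdRBC over hRBC (right, log axis), with 1 library per group and bars for 95% counting intervals. The dotted lines mark 1.2-fold; FTH1, FTL and SLC40A1 lie past it with intervals that leave out 1, HMOX1 lies between 1 and 1.2, and the intervals of the other 6 members hold 1.

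The fold of HMOX1 was not shared by all cells. The kept cells of both libraries were clustered with the members left out of the variable genes, and 5 clusters, called by number here, held at least 50 cells of each library. Clusters are ranked among these 5 alone. Of the smaller ones, cluster 7 (led by SELE and CXCL1, 105 and 15 cells) held HMOX1 at 1538 and 768 CPM, and cluster 6 (44 and 57 cells) at 274 and 209 CPM. Cluster 8 (16 and 19 cells) went the other way, with HMOX1 at 570 and 1161 CPM. In cluster 2, led by the immediate early gene EGR1 with GEM and AMPD3 (148 hRBC and 357 5% pdRBC cells), HMOX1 was the highest of the 5 in both libraries, at 1098 and 1423 CPM, a fold of 1.30 (1.23 to 1.36). Cells of cluster 0, led by mitotic genes such as AURKB and TOP2A (362 and 140 cells), had the lowest levels of the 5, 466 and 351 CPM, and there the fold was 0.753 (0.677 to 0.835). In cluster 3, led by ANK2 and WWTR1-AS1 and shallow in hRBC (1151 cells with a median of 1520 UMIs, against 89 cells with a median of 4409), the levels were 745 and 583 CPM, a fold of 0.784 (0.691 to 0.885). Clusters 4 (led by SMO and GJA5) and 5 (led by MGP and FABP4) were level, at 537 and 533 CPM and at 632 and 665 CPM.

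Cluster 2 held 23.2% of the HMOX1 UMIs of the hRBC library and 48.4% of those of the 5% pdRBC library, beside 14.1% and 26.2% of all UMIs. Without its cells HMOX1 stood at 596 CPM in hRBC and 538 CPM in 5% pdRBC, a fold of 0.904 (0.873 to 0.935), so the direction turned. A finer division (Leiden resolution 1.0) gave no higher HMOX1 level in 5% pdRBC within the cells led by EGR1. It split cluster 2 mainly into a cluster led by LCN6 and HIF1A-AS3, with 125 hRBC and 179 5% pdRBC cells of it among others, and a cluster led by AMPD3, EGR1 and GEM, with 17 and 162. The first holds 317 hRBC and 330 5% pdRBC cells in all, and those from cluster 2 were not compared apart from the rest. Over all its cells, HMOX1 stood at 784 and 1381 CPM, a fold of 1.76 (1.68 to 1.85). The fold over all cells outside it was 0.946 (0.915 to 0.979). In the second, which holds 17 hRBC and 164 5% pdRBC cells in all, it stood at 1259 and 1177 CPM, a fold of 0.934 (0.838 to 1.05). The HMOX1 fold outside that cluster was 1.09 (1.05 to 1.12), below the 1.16 over all cells, so leaving it out also lowered the difference. Cluster membership differed between the libraries. Cluster 2 held 5.79% of hRBC and 22.3% of 5% pdRBC cells, cluster 3 held 45.0% and 5.56%, and cluster 4 held 18.7% and 46.5%. What sets this membership was not tested.

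The ferritin chains behaved differently from HMOX1. FTL was higher in 5% pdRBC in each of the 5 clusters, by 1.27-fold in cluster 0, 1.25-fold in cluster 2, 1.63-fold in cluster 3, 1.13-fold in cluster 4 and 1.11-fold in cluster 5. For FTH1 the folds were 1.19, 1.202, 1.54, 1.11 and 1.09 in the same order. Depth differed within clusters too. The median hRBC cell was shallower than the median 5% pdRBC cell in clusters 0, 3 and 5 (1520 against 4409 UMIs in cluster 3) and deeper in clusters 2 and 4. In clusters 4 and 5, both under 1.2-fold, the ferritin difference was about as small as that of HMOX1 over all cells. At resolution 1.0 there was an exception, a cluster led by FABP4 and GJA4 in which FTL stood at 21887 and 21779 CPM, a fold of 0.995 (0.982 to 1.01). Like HMOX1, both chains were highest in cluster 2 among the 5, at 36198 and 43515 CPM for FTH1 and 34097 and 42697 CPM for FTL.

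**Figure D2:**
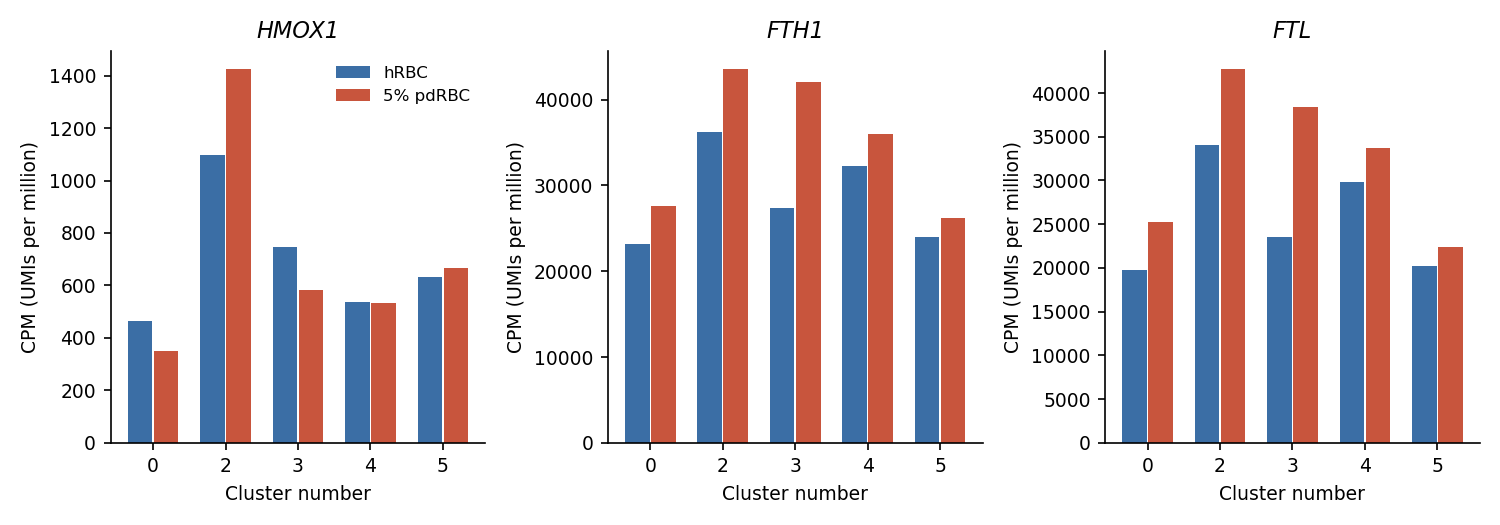
Level (CPM, bars from 0) of HMOX1, FTH1 and FTL in the 5 clusters with at least 50 cells of each library, hRBC in blue and 5% pdRBC in red, 1 library each. FTH1 and FTL are higher in 5% pdRBC in all 5 clusters, while HMOX1 is higher in cluster 2 (1098 and 1423 CPM) and lower in clusters 0 and 3.

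SLC40A1 followed other cells. Among the 5 clusters it was lowest in cluster 2, where HMOX1 was highest, with 9.61 CPM in hRBC and 6.87 CPM in 5% pdRBC, on 18 and 29 UMIs. In cluster 4 (479 hRBC and 744 5% pdRBC cells) it stood at 29.5 and 45.1 CPM, a fold of 1.52 (1.25 to 1.87), and this cluster held 62.5% of its UMIs in 5% pdRBC against 41.2% in hRBC. Without cluster 4 the levels were 24.6 and 22.2 CPM, a fold of 0.906 (0.741 to 1.11). At resolution 1.0, among the clusters with at least 50 cells of each library, the highest levels lay in one led by DACH1 and LIMCH1 (61 and 285 cells), 80.1 CPM in hRBC and 73.6 CPM in 5% pdRBC, and without that cluster the fold over all other cells was 1.02 (0.873 to 1.19). Both of these intervals held 1.

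Among the other members, BLVRB and HMOX2 were highest in cluster 5 of the 5 compared, at 125 and 134 CPM for BLVRB and 135 and 124 CPM for HMOX2. BLVRB was lower in 5% pdRBC in cluster 4, 69.7 and 52.8 CPM, a fold of 0.758 (0.653 to 0.879). HMOX2 had a fold of 0.485 (0.299 to 0.728) in the shallow cluster 3, on 220 and 24 UMIs. TFRC was highest of the 5 in the mitotic cluster 0, at 37.0 CPM in hRBC and 37.6 CPM in 5% pdRBC, and its interval held 1 in each of the 5 clusters.

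Cells were also compared at like depth, divided by their UMIs into 5 bins, from 1000 to 2000 up to 20000 or more. Like depth does not make the cells alike in other ways. Cells under 5000 UMIs were 1786 of 2555 in hRBC and 231 of 1601 in 5% pdRBC. From 1000 to 2000 UMIs, 27.8% of all genes measured there passed 1.5-fold, beside 2.78% from 5000 to 10000. Whether a bin held the same kinds of cells in both libraries was not tested. In hRBC, HMOX1 was nearly flat over the bins, at 664, 696, 657, 677 and 599 CPM from the shallowest to the deepest. In 5% pdRBC the same bins gave 352, 528, 634, 856 and 843 CPM. HMOX1 was therefore lower in 5% pdRBC among cells under 5000 UMIs, with a fold of 0.759 (0.671 to 0.856) from 2000 to 5000, and higher among cells of 10000 to 20000 UMIs, with a fold of 1.27 (1.22 to 1.31). The shallowest bin held 44 cells and 24 HMOX1 UMIs in 5% pdRBC.

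The ferritin chains kept 1 direction above 2000 UMIs. FTL had folds of 1.17, 1.18, 1.19 and 1.30 in the 4 bins from 2000 UMIs up, and FTH1 had folds of 1.11, 1.12, 1.18 and 1.22. Below 2000 UMIs both were lower in 5% pdRBC, FTL at 19775 and 14166 CPM and FTH1 at 23615 and 15617 CPM. Ferritin also differed with depth inside each library: in hRBC, FTL was 20788 CPM from 2000 to 5000 UMIs and 29996 CPM from 5000 to 10000. Barcodes left out by the cell filter, a stand-in for empty or damaged droplets, held FTL at 18873 CPM and HMOX1 at 737 CPM in hRBC (1303 barcodes). With no cell type that lacks these genes, RNA free in the droplets could not be set apart from expression.

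**Figure D3:**
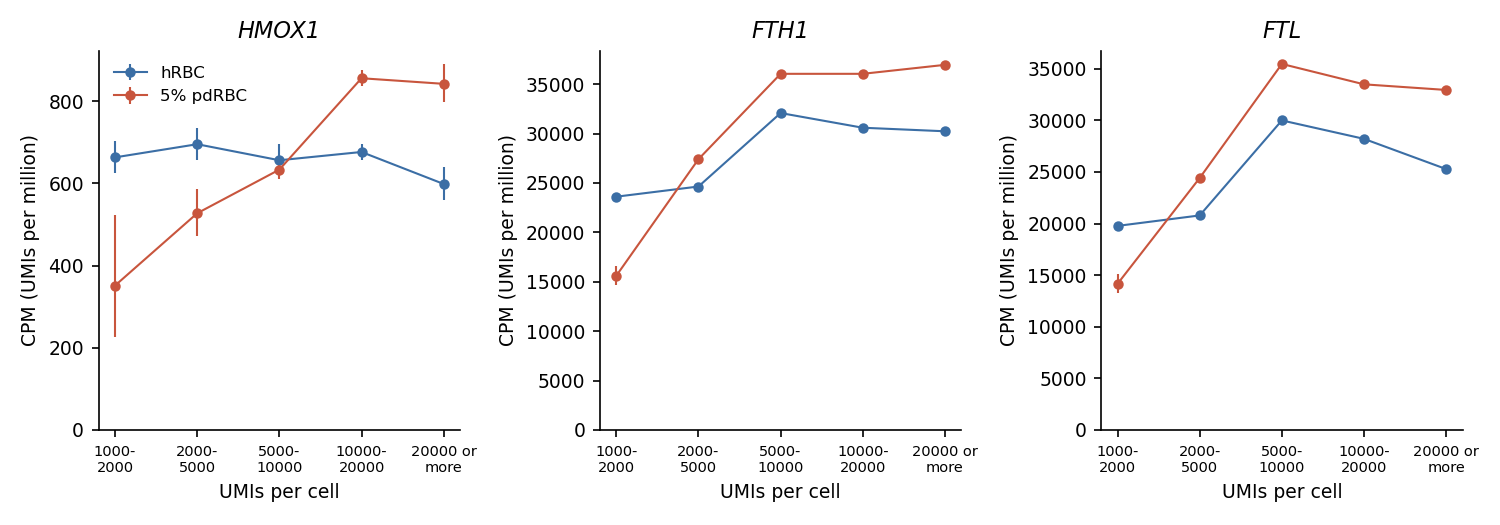
Level (CPM, axis from 0) of HMOX1, FTH1 and FTL against UMIs per cell in 5 bins, hRBC in blue and 5% pdRBC in red, with 95% counting intervals. The HMOX1 lines cross, from 696 against 528 CPM at 2000 to 5000 UMIs to 677 against 856 CPM at 10000 to 20000, whereas FTH1 and FTL lie higher in 5% pdRBC in every bin above 2000 UMIs.

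Spread from cell to cell was read after each cell of at least 2000 UMIs was thinned to 2000, which left 1375 hRBC and 1557 5% pdRBC cells and dropped 1180 and 44. Of these, 56.4% (53.7 to 59.0) of hRBC cells and 54.7% (52.1 to 57.2) of 5% pdRBC cells held an HMOX1 UMI. Without thinning the shares were 64.8% of 2555 and 82.5% of 1601 cells, which follow the depths. The order of the thinned shares goes against that of the pooled CPM, and no order is read from them. The median cell held 1 HMOX1 UMI in both libraries, and the highest cell held 11 in hRBC and 20 in 5% pdRBC.

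HMOX1 was unusually uneven. Its Fano factor, the variance over the mean, was 2.41 in hRBC and 3.20 in 5% pdRBC, above each of the 107 and 103 genes whose mean was within 25% of its own, which had medians of 1.18 and 1.28. The top 10% of cells held 41.7% of the HMOX1 UMIs in hRBC and 44.8% in 5% pdRBC. Cells with at least 10 HMOX1 UMIs numbered 6 of 1375 (0.436%) and 16 of 1557 (1.03%). At 5000 UMIs per cell, the Fano factors were 4.62 and 5.58, above 100% and 98.9% of the genes of like mean. In cluster 2, 74.7% of hRBC cells and 81.2% of 5% pdRBC cells held an HMOX1 UMI at 2000 UMIs, against 45.9% and 38.1% in cluster 0.

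Ferritin was in nearly every cell. FTH1 was seen in 1374 of 1375 thinned hRBC cells and in all 1557 thinned 5% pdRBC cells. Its median was 52 UMIs in hRBC and 66 in 5% pdRBC, with the tenth and ninetieth percentiles at 29 and 86 and at 33 and 111. FTL had medians of 45 and 58 UMIs and ran from 20 to 86 and from 26 to 115 over the same percentiles. The tenth percentile, median and ninetieth percentile of both chains were thus all higher in 5% pdRBC, and the cells of the libraries overlapped widely. The first percentile was not, at 12 UMIs in hRBC and 10.6 in 5% pdRBC for FTH1 and 8 and 7 for FTL. Fano factors were 10.5 and 13.9 for FTH1 and 13.9 and 21.0 for FTL, with no other gene of like mean to set beside them.

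**Figure D4:**
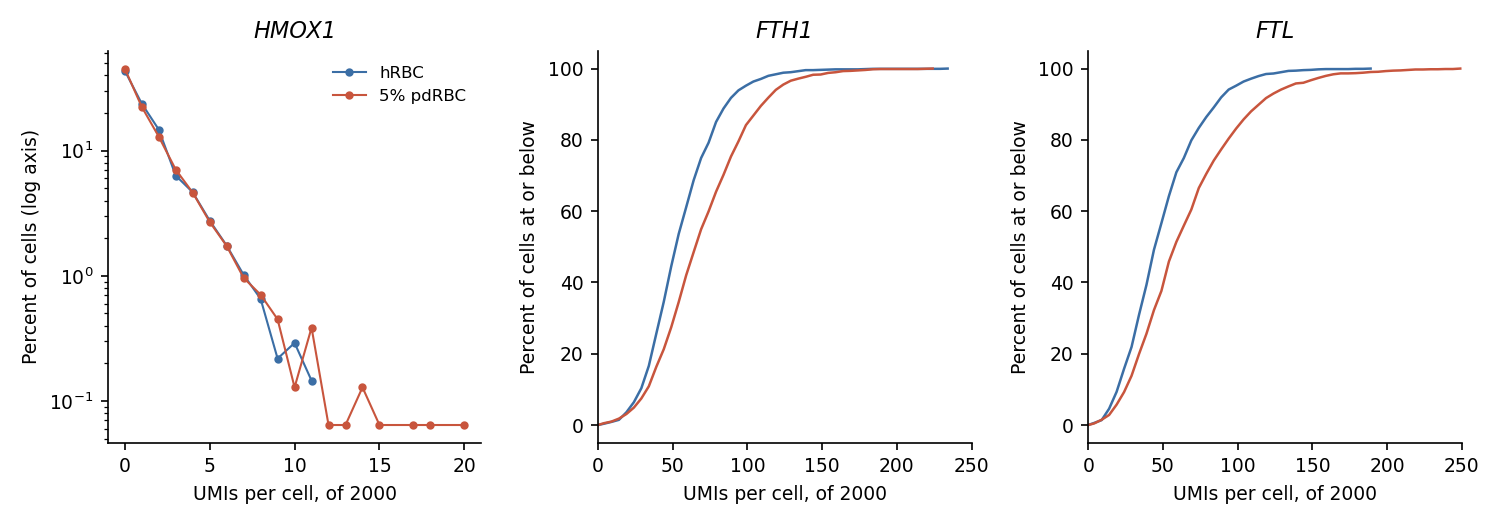
Cells thinned to 2000 UMIs, hRBC in blue (1375 cells) and 5% pdRBC in red (1557 cells): percent of cells at each HMOX1 count (left, log axis) and cumulative percent of cells against FTH1 and FTL counts (middle and right). The HMOX1 curves coincide up to about 8 UMIs and the 5% pdRBC curve runs on to 20. From the tenth to the ninetieth percentile, the FTH1 and FTL curves lie to the right in 5% pdRBC (medians 66 against 52 and 58 against 45 UMIs). At the first percentile the order is the other way, 10.6 against 12 UMIs for FTH1 and 7 against 8 for FTL.

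The remaining 7 members were sparse in single cells. At 2000 UMIs per cell, HMOX2 was seen in 16.1% of hRBC and 14.9% of 5% pdRBC cells, and BLVRB in 14.3% and 12.1%. SLC40A1 was seen in 4.22% (3.22 to 5.42) and 6.23% (5.08 to 7.55), TFRC in 5.09% and 5.97%, SLC48A1 in 3.35% and 3.79%, BLVRA in 3.13% and 2.89%, and FLVCR1 in 1.16% and 1.48%. Fano factors lay between 0.967 and 1.14, near 1, the value of random sampling. SLC40A1 departed most from it once depth allowed: at 5000 UMIs per cell its Fano factor was 1.46 in hRBC and 1.48 in 5% pdRBC, above 98.8% and 98.2% of genes of like mean.

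Co-expression was read in cells thinned to 5000 UMIs, 769 in hRBC and 1370 in 5% pdRBC, as Pearson's r of log counts. These correlations are across cells that share a library, so they are descriptions without p-values. FTH1 and FTL went together closely, with r = 0.836 in hRBC and 0.823 in 5% pdRBC. Within clusters 0, 2, 4 and 5, taken 1 library at a time, their r ran from 0.724 to 0.797. HMOX1 had r = 0.292 and 0.335 with FTH1 and r = 0.299 and 0.360 with FTL. These 3 were the pairs above 0.2 among 45, and the other 42 lay within 0.15 of 0 in each library. Within clusters 0, 2, 4 and 5, HMOX1 had r from 0.157 to 0.398 with FTH1 and from 0.184 to 0.401 with FTL. With FTH1 in 5% pdRBC, r was lower in each of these clusters than over all cells. Sparse members can give no more than weak correlations at this depth.

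**Figure D5:**
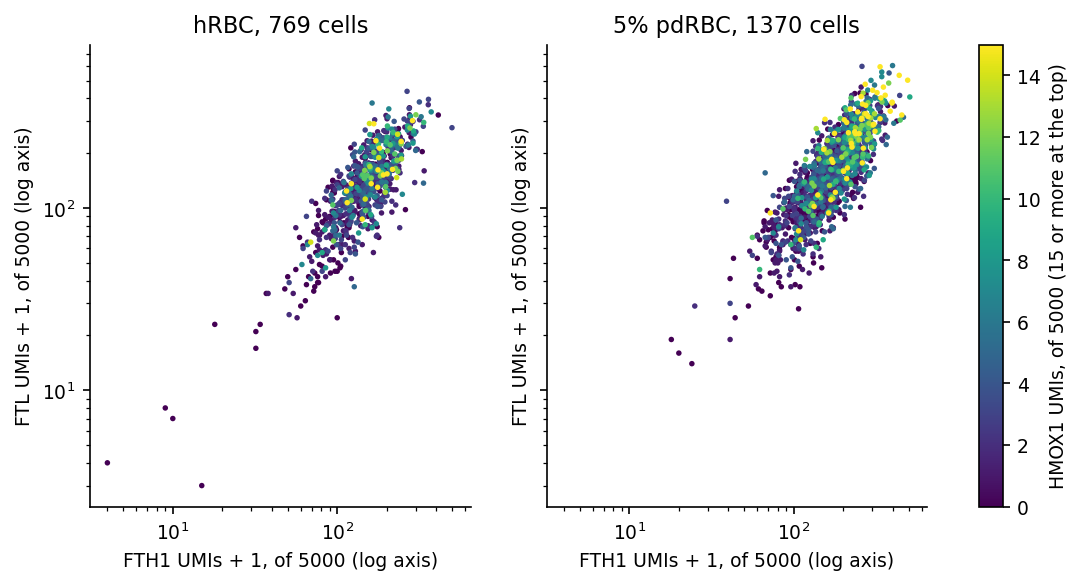
FTL against FTH1 in single cells thinned to 5000 UMIs (count plus 1, log axes), coloured by HMOX1 UMIs, in 769 hRBC and 1370 5% pdRBC cells. The ferritin chains lie along 1 line in both libraries (r = 0.836 and 0.823), and cells with many HMOX1 UMIs lie toward its upper end.

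The genes most like HMOX1 were ranked by their mean r over both libraries among 5845 genes seen in at least 10% of the thinned cells, without mitochondrial and ribosomal protein genes. FTL and FTH1 came first, followed by SQSTM1 (r = 0.245 in hRBC and 0.323 in 5% pdRBC), the autophagy receptor p62, and MT2A (0.188 and 0.326), a metallothionein. MIR22HG, TXN, S100A10 and RGS4 completed the first 8. In each of the 8, r was higher in 5% pdRBC, a difference that was not tested. At the other end lay VWF, the clotting protein of endothelial storage granules, with r = -0.21 in hRBC and -0.39 in 5% pdRBC.

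For FTH1 the most like genes after FTL were PPDPF (r = 0.436 and 0.382), BRI3 (0.369 and 0.408) and SH3BGRL3 (0.401 and 0.302), then HMOX1, SRXN1, OAZ1 and MIR22HG. FTL had BRI3, PPDPF, HMOX1, SQSTM1, SRXN1, SH3BGRL3 and MIR22HG after FTH1. Of the 8 nearest genes of each chain, 6 besides the other chain were on both lists.

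The wider pathway lay closer to level than ferritin. Of 107 further genes in 8 lists, 79 were measured. Of these, 3 were at least 1.2-fold higher with an interval that left out 1, beside 7.28% of all measured genes. Another 2 were as much lower, beside 5.06%, and 0 passed 1.5-fold, beside 1.55% higher and 1.09% lower. The median log2 fold over the 79 was 0.05, beside 0.02 over all measured genes. Heme synthesis (8 of 9 measured) had 0 genes past 1.2-fold. Its first enzyme ALAS1 stood at 37.0 and 31.6 CPM, a fold of 0.854 (0.753 to 0.968), and UROD at 103 and 88.5 CPM, a fold of 0.857 (0.796 to 0.924). Of heme transport and binding genes (8 of 15 measured, 0 past 1.2-fold), the heme-binding protein gene HEBP2 was at 1.16-fold (1.12 to 1.21).

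Iron import, reduction and trafficking (10 of 18 measured) had 1 gene past 1.2-fold, the ferrireductase STEAP3, with 125 and 200 UMIs and a fold of 1.32 (1.05 to 1.67). The other named genes of that list were MCOLN1, a lysosomal channel, at 0.882-fold (0.780 to 0.997), and PCBP2, an iron chaperone, at 1.06-fold (1.00 to 1.11). Of the storage turnover and systemic control genes (3 of 11 measured, 0 past 1.2-fold), the hepcidin-inducing ligands BMP6 and BMP2 were at 1.15-fold (1.11 to 1.19) and 1.14-fold (1.07 to 1.22). NCOA4, which carries ferritin to lysosomes, was at 0.984-fold (0.901 to 1.07). Iron sensing and iron-sulfur cluster assembly (14 of 14 measured) had 1 gene past 1.2-fold, the cysteine desulfurase NFS1, at 0.725-fold (0.559 to 0.940) on 130 and 114 UMIs. CISD2 was at 1.15-fold (1.05 to 1.25), CIAO2B at 1.12-fold (1.06 to 1.18), and FBXL5, which directs the degradation of iron regulatory protein 2, at 0.884-fold (0.809 to 0.967).

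Regulators of heme and oxidant response (11 of 11 measured) had 0 genes past 1.2-fold. BACH1 was at 1.12-fold (1.02 to 1.25), MAFF at 1.14-fold (1.06 to 1.22), NFE2L1 at 1.13-fold (1.05 to 1.22) and ATF4 at 0.895-fold (0.841 to 0.953). NFE2L2, which encodes NRF2, was at 1.01-fold (0.944 to 1.09). NRF2 and BACH1 target genes other than the members (18 of 18 measured) did not share the direction of ferritin: 9 had a positive and 9 a negative log2 fold, with a median of -0.02. Among the largest were GSR at 0.810-fold (0.737 to 0.890), the one past 1.2-fold, NQO1 at 0.877-fold (0.854 to 0.900) and SRXN1 at 1.10-fold (1.05 to 1.15). Lipid peroxide and ferroptosis genes (7 of 11 measured) had 2 past 1.2-fold, among them GPX4, which clears lipid peroxides, at 914 and 1135 CPM or 1.24-fold (1.21 to 1.27). ACSL4 was at 1.17-fold (1.07 to 1.28) and SAT1 at 1.12-fold (1.09 to 1.15).

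Some counts are uncertain by construction. GENCODE 29 lists 25 processed copies of FTH1 and 16 of FTL, none of them among the genes of the matrices, so reads from copies and parents may not have been told apart. FTH1 overlaps BEST1 on the other strand (1637 and 1246 UMIs), HMOX2 overlaps NMRAL1 (355 and 503 UMIs), and SLC48A1 overlaps RAPGEF3 (250 and 285 UMIs) and HDAC7 (1570 and 1887 UMIs). The strand setting of the counting is not given in the sources used here.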

How the data were processed

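Single-cell RNA was measured in HUVECs of both groups, 1 library each. The authors deposited UMI counts per gene and cell barcode, made with Cell Ranger 7.0.0 against GRCh38 per the submitters' processing notes; the gene annotation's release is not given in the sources used here. The deposited barcodes numbered 3858 (hRBC) and 1635 (5% pdRBC), with 14321939 and 16158876 UMIs. Computed here were the cell filter given above, sums of counts over kept cells, CPM, and folds of CPM (5% pdRBC over hRBC) after 0.5 UMIs were added to each sum. Exact Clopper-Pearson 95% intervals cover counting error only. No doublet caller was run, and all kept cells were used as 1 class, since cluster names changed with resolution. Clusters came from Scanpy 1.11.5 (1999 variable genes without members, 30 components, 15 neighbours, Leiden resolution 0.5). Thinning drew UMIs without replacement. Folds and thinning were tested on simulated data.

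The genes named were all 10 members, up to 4 genes per pathway list with the largest log2 fold among those whose interval left out 1, and the 8 genes with the highest mean r for each member seen in at least 20% of thinned cells. Some genes that the rule names are not reported here. NCOA4 and NFE2L2 were named outside that rule, after their values were seen. The members, lists and rules were chosen with earlier results of these data known. Hairpin sites were read from GENCODE 29 transcripts (GRCh38), with positions from its annotation. Alternatives covered scaling (TMM from edgeR 4.0.16), filters, depth, clusters, thinning and the gene minimum.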

Additional observations from a re-analysis of the deposited data

Results flagged for a closer look

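HMOX1 differed in direction between clusters, each compared between the same 2 libraries. Its log2 fold (5% pdRBC over hRBC) was 0.37 in cluster 2, led by EGR1, GEM and AMPD3, on 2057 and 6008 HMOX1 UMIs. At the finer resolution of 1.0, the cluster led by AMPD3, EGR1 and GEM (17 and 164 cells) had a log2 fold of -0.099, on 367 and 2466 UMIs, and the cluster led by LCN6, which took most other cells of cluster 2, had 0.82. In the mitotic cluster 0 it was -0.41, on 1008 and 559 UMIs, and in the shallow cluster 3 it was -0.35, on 1695 and 304 UMIs. The counting intervals left out level in all 3 clusters. With 1 library per group, the difference between clusters was not tested.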

How the results depend on the processing

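No paired analysis was possible because each group is 1 library. Over TMM scaling, median of ratios scaling, a total without mitochondrial, ribosomal protein and member genes, and all cell filters run, FTH1, FTL and HMOX1 stayed higher in 5% pdRBC; scaling shifted all genes together by -0.017 to 0.012 on the log2 scale. With a gene minimum of 500 UMIs in place of 100, 442 against 804 genes were at least 1.2-fold higher and 327 against 559 lower, over 7020 against 11043 genes, as fewer genes were counted; 3 of 8 members were higher. Weighting every cell equally and counting by fold alone, 1 member passed 1.5-fold: FLVCR1 at 1.52-fold, on 69 and 113 UMIs. That rule used no interval, and the share of all genes past it was not computed. In cells thinned to 2000 UMIs, 1 member was at least 1.2-fold lower (BLVRB, log2 fold -0.30), beside 6.41% of all genes measured there, and 1 passed 1.5-fold (SLC40A1, 0.62), beside 3.14%, and HMOX1 was at 0.08.

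Several directions differed between bins of depth, which may hold unlike cells of the libraries. From 1000 to 2000 UMIs, the log2 fold was -0.89 for HMOX1, -0.60 for FTH1 and -0.48 for FTL, with 0 of 5 members at least 1.2-fold higher, 3 lower and 2 past 1.5-fold, beside 15.2%, 13.7% and 27.8% of all genes. From 2000 to 5000 UMIs, HMOX1 was at -0.40, with 0 of 5 members higher and 1 lower, beside 16.7% and 14.9%; from 5000 to 10000 it was at -0.051, with 0 of 8 members higher, beside 5.35%. Only members with 100 UMIs were counted within bins and clusters, so medians were not compared there.

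Within cluster 0, HMOX1 was at -0.41, with 1 of 7 members higher and 1 lower, beside 7.38% and 6.50% of all genes measured there. Within cluster 3 it was at -0.35, with FTH1 and FTL higher and 2 of 5 members lower, beside 5.28% and 14.6%. There 3 members passed 1.5-fold, FTH1 and FTL upward and HMOX2 downward, beside 10.3%. Within cluster 4 HMOX1 was at -0.010, with 1 of 9 members higher, 2 lower and 1 past 1.5-fold, beside 8.28%, 5.26% and 2.51%. Within cluster 5, 0 of 6 members were higher, beside 5.76%. Without cluster 2, HMOX1 was at -0.15. Without cluster 4, SLC40A1 was at -0.14 and 1 member passed 1.5-fold (FLVCR1), beside 2.90%; without cluster 5, 1 member was at least 1.2-fold lower (BLVRA), beside 5.34%. At resolution 1.0, HMOX1 was at -0.22 in cluster 0, -0.65 in cluster 7 and -0.28 in cluster 11, SLC40A1 at -0.14 in cluster 7 and -0.066 in cluster 9, and FTL at -0.0071 in cluster 9.

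The correlation of FTH1 with FTL in hRBC was 0.782 as Spearman's rho. At 2000 UMIs per cell, HMOX1 in 5% pdRBC had r = 0.266 with FTH1 and 0.308 with FTL. The cause of these changes was not tested.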

Other observations

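In BLVRB, the most like genes were ANXA2 (r = 0.191 in hRBC and 0.201 in 5% pdRBC), PRDX1 (0.205 and 0.186), PPIA (0.206 and 0.183), GSTP1 (0.199 and 0.187) and NQO1 (0.186 and 0.194), with CD63, MYL6 and MYL12B after them. PRDX1, GSTP1 and NQO1 encode a peroxide reductase, a glutathione transferase and a quinone reductase. For HMOX2 the most like gene was ANXA2 (r = 0.118 and 0.134), followed by NSMCE1, PRDX1, NUCB2, SRGN, MYL12A and MYL6. From values this low in sparse counts, neither a relation nor its absence is read.

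Of 57 pathway genes seen often enough to correlate, those most like HMOX1 after TXN were SRXN1 (r = 0.109 in hRBC and 0.341 in 5% pdRBC), OSGIN1 (0.197 and 0.234) and GCLM (0.166 and 0.245), 3 NRF2 target genes. BMP6 stood at the other end with FTH1 (-0.17 and -0.089). GPX4 had r = 0.306 and 0.159 with FTH1. The ribosomal protein genes, 84 in all, had a median r with FTH1 of 0.188 in hRBC and -0.0067 in 5% pdRBC. These genes were looked up after the values were seen.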
